A study of Mus musculus with 8 samples.

Results

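The 9 genes described here encode enzymes of the methionine cycle, of methyl transfer from S-adenosylmethionine, and of the steps next to them. They were taken by gene symbol from a table of 45706 genes, and all 9 were among the 14629 genes with enough counts to be tested. The samples were the livers of 8 female C57BL/6J mice, 4 months old and fasted overnight, with 1 RNA sequencing library per mouse. The 4 WT mice carried the unmodified perilipin 5 gene. The 4 SA/SA mice carried S155A, a change of a serine of perilipin 5 to alanine that was knocked into the endogenous gene in the whole body by CRISPR-Cas9, so its product is made under its own promoter in every cell that uses it. Perilipin 5 coats lipid droplets and is a substrate of protein kinase A. The SA/SA mice came from the offspring of an edited founder, and no group of mice was given any agent other than the fast.

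The deposited labels also number the animals, and the numbers fall in 2 series. WT replicates 2 and 3 (numbers 856 and 869) and SA/SA replicates 2 and 3 (830 and 831) form the high series, over 800. WT replicates 1 and 4 (123 and 89) and SA/SA replicates 1 and 4 (118 and 90) form the low series, under 200. What the number stands for beyond the animal is not given in the sources used here, so anything that went with it cannot be told apart from the number itself. Each series held 2 mice of each genotype.

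In the methionine cycle, methionine adenosyltransferase converts methionine and ATP to S-adenosylmethionine, methyltransferases pass its methyl group to an acceptor and release S-adenosylhomocysteine, and the latter is split to homocysteine. Homocysteine is either methylated back to methionine or moved on to cysteine. The liver runs most of this traffic in the body, and glycine, phosphatidylethanolamine, guanidinoacetate and nicotinamide are among its acceptors there.

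Total estimated counts were between 39709785 and 54540864 per library. The labels name hepatocytes as the cell type beside liver as the tissue. The hepatocyte markers matched (6 of 7 listed, led by albumin) summed to between 86219 and 122416 CPM (a gene's share of the scaled library total, per 1000000), but markers of Kupffer cells (149 to 360.0 CPM), stellate cells and fibroblasts (106 to 313 CPM), endothelial cells (97.7 to 161 CPM) and red blood cells (375 to 2428 CPM) were present as well, so the samples are read as whole liver. Adipocyte markers summed to at most 0.80 CPM, with leptin at 0 in all 8 libraries. Pancreatic acinar markers summed to 40.8 CPM in WT replicate 2 against 4.18 to 6.43 CPM in the other 7 libraries, and lymphocyte markers to 90.0 CPM in SA/SA replicate 3 against 4.44 to 9.67 CPM, mostly from Jchain. Plin5 itself was at 183 to 254 CPM in WT and 192 to 457 CPM in SA/SA mice, which does not check the genotype, since a codon was exchanged and the gene was kept. In bulk liver, fewer cells of a type and less RNA per cell cannot be told apart.

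Levels between genes were compared only as CPM per kilobase of the longest coding transcript. By that measure Bhmt (betaine-homocysteine methyltransferase, which remakes methionine with betaine as donor) was the most abundant, at 3353 ± 1495 (SD, n = 8 mice). Mat1a (methionine adenosyltransferase, 2261 ± 532), Gnmt (glycine N-methyltransferase, 1820 ± 540) and Ahcy (adenosylhomocysteinase, 1356 ± 385) came next. The ranges of these 4 genes over the mice overlapped from each gene to the next. Pemt (phosphatidylethanolamine N-methyltransferase, 304 ± 58.4) and Nnmt (nicotinamide N-methyltransferase, 269 ± 121) lay below all 8 values of Ahcy and overlapped each other. Cbs (cystathionine beta-synthase, 99.4 ± 9.39) and Gamt (guanidinoacetate N-methyltransferase, 99.1 ± 27.0) had nearly the same mean. Cbs was divided by a transcript of 6226 bases, the longest of the set, so its place in the order depends on which isoform is taken. Gatm (glycine amidinotransferase, which makes the guanidinoacetate that Gamt methylates) was lowest at 1.40 ± 0.371, with 90 to 241 counts per library, the fewest of the set, so counting error is largest for it. The 9 genes made up 1.66% to 3.09% of all counts, depending on the mouse.

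On GRCm38, Mat1a lies on chromosome 14 (41105035 to 41124412, plus strand) and has 10 exons in its longest coding transcript. The other members are on minus strands: Ahcy on chromosome 2 (155059310 to 155074497), Bhmt on chromosome 13 (93616675 to 93637961), Cbs on chromosome 17 (31608894 to 31637238), Gnmt on chromosome 17 (46725664 to 46729168), Pemt on chromosome 11 (59970614 to 60046489), Gatm on chromosome 2 (122594467 to 122611303), Gamt on chromosome 10 (80258151 to 80261012) and Nnmt on chromosome 9 (48591877 to 48605153). Ahcy, Bhmt and Gnmt each overlap an annotated transcript of the opposite strand (Gm45609, Gm15622 and Gm26904), and the use of strand in counting is not given in the sources used here. The Bhmt transcript shares 99.4% of 1869 aligned bases with Gm5096, which was given 2285 to 7997 counts per library, and the Ahcy transcript shares 99.7% of 2083 bases with Gm4737, which was given 1866 to 3894. The Ahcy transcript also shares 99.2% of 1299 bases with the processed pseudogene Gm9826, which was given 129 to 322 counts. Reads could be split between these genes in either direction. The levels of Bhmt and Ahcy are therefore uncertain, by an amount that the counts of the copies do not bound.

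The first question was whether these enzymes differed between SA/SA and WT liver. None of the 9 passed an adjusted p of 0.05 by edgeR's quasi-likelihood test, in a comparison where 0 of 14629 genes (0%) did and the smallest adjusted p of any gene was 0.758. At an unadjusted p under 0.05 the count was 0 of 9 members, against 497 of all genes (3.4%), of which 208 were higher and 289 lower in SA/SA mice. DESeq2 called 0 of the 9 members and 6 of all genes. The fitted value of Gatm was below 0 and those of the other 8 members above, with a median log2 fold change of 0.14 over the members and -0.01 over all genes tested. For no member did the 4 SA/SA mice lie apart from the 4 WT mice, which 2.3% of all genes did. For Bhmt and Nnmt, 2 standard errors on either side of the fitted value run from -0.43 to 1.09 and from -0.09 to 1.31, so sizeable differences in either gene are within the error.

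**Figure D1:**
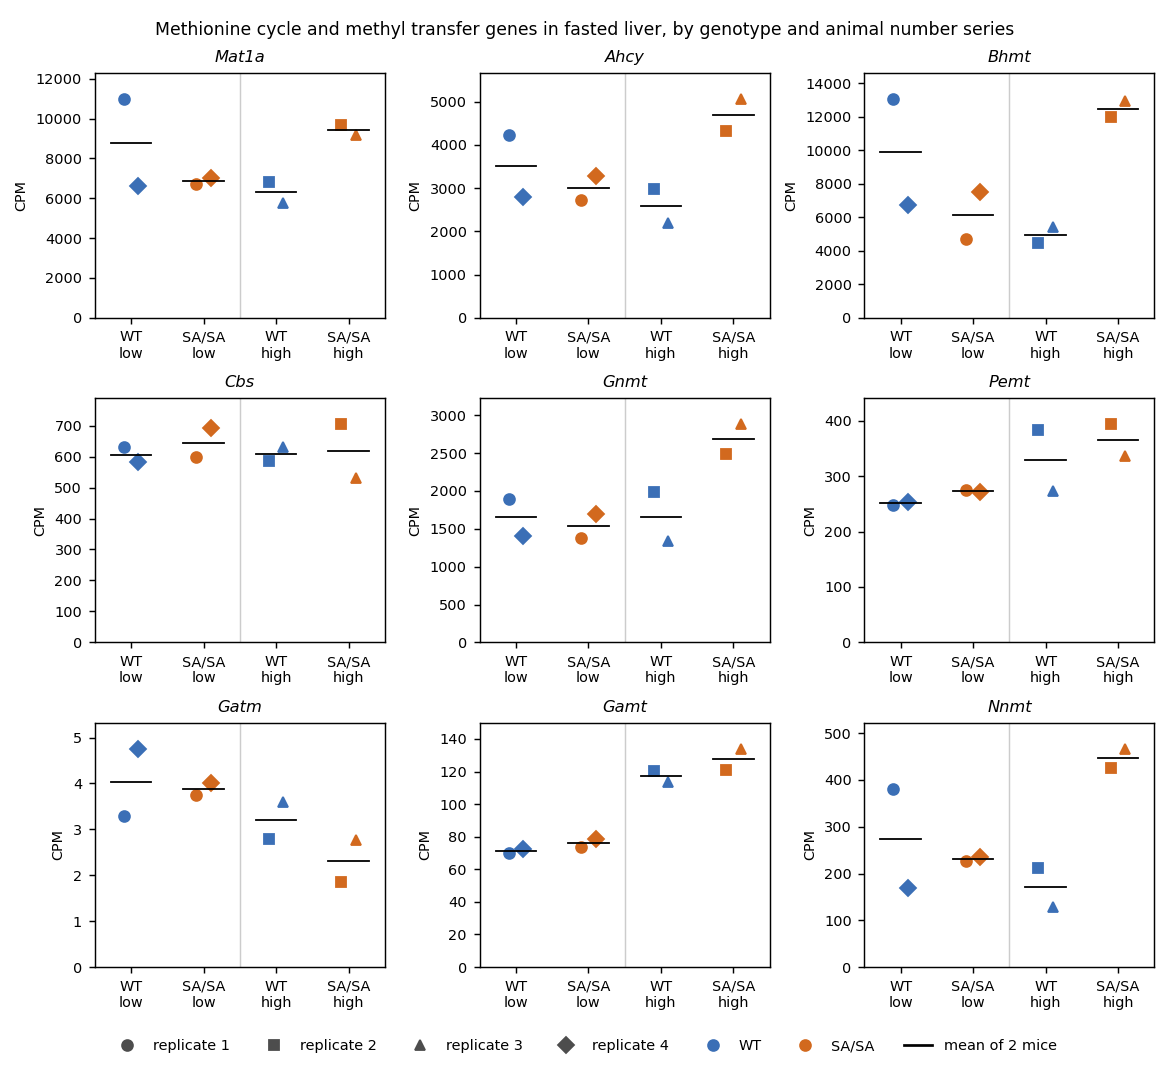
CPM (linear axes from 0) of the 9 genes in each of the 8 mice, by genotype and animal number series; symbols give the replicate number and black lines the mean of 2 mice. Gamt separates by series (69.8 to 78.3 against 114 to 134 CPM), while for Mat1a, Ahcy, Bhmt and Nnmt the WT mouse of replicate 1 and both SA/SA mice of the high series are the 3 highest.

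Mat1a makes S-adenosylmethionine in hepatocytes. It was at 10958, 6830.2, 5757 and 6605 CPM in WT replicates 1 to 4 and at 6700.3, 9689, 9182 and 7017 CPM in SA/SA replicates 1 to 4. The WT mouse of replicate 1 was the highest of all 8 and the other 3 WT mice were at or below 6830.2 CPM, so the genotypes overlapped. The fitted SA/SA to WT log2 fold change was 0.11 (SE 0.21, adjusted p = 0.996), and 2 standard errors on either side run from -0.32 to 0.54.

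Ahcy splits S-adenosylhomocysteine, an inhibitor of methyltransferases, to adenosine and homocysteine. It was at 4219.6, 2991, 2191 and 2791 CPM in WT mice and at 2723, 4328, 5054 and 3291 CPM in SA/SA mice. The 2 highest values were SA/SA replicates 3 and 2, followed by WT replicate 1, and the lowest was WT replicate 3. SA/SA against WT, its log2 fold change was 0.34 (SE 0.23, adjusted p = 0.993). Its promoter, taken from RefSeq (GRCm38.p6, chr2:155074498-155074747, minus strand, 250 bases before the start site), is shown as that of a gene whose 3 highest mice are shared with Mat1a, Bhmt and Nnmt; capitals mark AGGTCA read on the other strand, the core site of nuclear receptors.
Ahcy promoter: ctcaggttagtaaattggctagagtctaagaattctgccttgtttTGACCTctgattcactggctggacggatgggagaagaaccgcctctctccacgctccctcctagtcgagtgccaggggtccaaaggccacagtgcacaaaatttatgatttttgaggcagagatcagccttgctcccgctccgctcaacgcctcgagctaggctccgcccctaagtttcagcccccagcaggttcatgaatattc

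Bhmt spanned the widest range of the highly expressed genes. It was at 13028, 4464, 5407 and 6700.4 CPM in WT mice and at 4704, 12007, 12963 and 7526 CPM in SA/SA mice. WT replicate 1 and SA/SA replicates 2 and 3 stood at 12007 CPM or above, and the other 5 mice stood at or below 7526 CPM with both genotypes among them. The log2 fold change was 0.33 (SE 0.38, adjusted p = 0.993). Gm5096, the near-identical copy, was the gene most like Bhmt over the 8 mice (Pearson r 0.997), and reads can be split between these 2 genes. The 250 bases before the RefSeq start site of Bhmt hold AGGTCA 3 times on the given strand, at -234, -72 and -47 from it. GENCODE annotates 203 of these bases as exon, so the window is not printed.

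Cbs, which joins homocysteine and serine to cystathionine and so takes homocysteine out of the cycle, varied least. It was at 630.5, 586, 629 and 581 CPM in WT mice and at 598, 705, 529 and 692 CPM in SA/SA mice. The SA/SA values lay on both sides of the WT range, with a larger spread (SD 82.9 against 26.7 CPM, n = 4 each). Its log2 fold change was 0.06 (SE 0.11, adjusted p = 0.996), and the SD of its log2 CPM over the 8 mice stood at percentile 14.0 of all genes tested. Nnmt and Bhmt stood at percentiles 87.8 and 87.1.

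Gnmt, an abundant hepatocyte enzyme that methylates glycine to sarcosine when S-adenosylmethionine is plentiful, was at 1893, 1982, 1334 and 1409 CPM in WT mice and at 1383, 2489.6, 2882 and 1698 CPM in SA/SA mice. SA/SA replicates 3 and 2 were the 2 highest, and SA/SA replicate 1 was among the 3 lowest. The fitted log2 fold change was 0.35 (SE 0.24, adjusted p = 0.993).

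Nnmt, which methylates nicotinamide and so ties methyl groups to NAD turnover, had the largest fitted difference of the set. It was at 381, 212, 128 and 168 CPM in WT mice and at 226, 426, 467 and 236 CPM in SA/SA mice. All 4 SA/SA mice exceeded 3 of the 4 WT mice, and WT replicate 1 lay above SA/SA replicates 1 and 4. The log2 fold change was 0.61 (SE 0.35, 1.52-fold), with an adjusted p of 0.993 by edgeR and a p of 0.143 by a two-sided exact permutation test, for which the smallest p with 4 mice against 4 is 0.0286. With mice left out in turn it ran from 0.41 to 1.0, the latter without WT replicate 1.

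For Pemt, Gamt and Gatm the genotypes overlapped as well. Pemt makes phosphatidylcholine by methylating phosphatidylethanolamine, and it averaged 289.7 ± 63.5 CPM in the WT and 319 ± 58.1 CPM in the SA/SA group (SD, n = 4 each). Gamt makes creatine from guanidinoacetate, and its mean was 94.0 ± 26.7 and 102 ± 30.2 CPM. Gatm was at 3.61 ± 0.833 and 3.10 ± 0.982 CPM. Their log2 fold changes were 0.14 (SE 0.17), 0.11 (SE 0.25) and -0.22 (SE 0.27), and the fitted value of Gamt was below 0 without WT replicate 1 or SA/SA replicate 3. In the same order, 2 standard errors on either side run from -0.21 to 0.49, -0.38 to 0.60 and -0.77 to 0.33. Differences of that size are within the error.

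The second question was whether the enzymes differed between the high and the low animal number series, with genotype kept in the fit. Gamt, which makes creatine, separated the series, and its unadjusted p of 9.27e-06 was the smallest of all 14629 genes, but the adjusted p of 0.0618 by edgeR misses the threshold. Pemt was higher and Gatm lower in the high series at an unadjusted p under 0.05, and the other 6 members had fitted values within 2 standard errors of 0. In all, 0 of 9 members were called, as were 0 of all genes (0%). At an unadjusted p under 0.05 there were 3 of 9 members against 12.8% of all genes (1877, of which 971 were higher and 906 lower), and 38 genes had an adjusted p under 0.1. DESeq2 called 1 member, Gamt, and 408 of all genes.

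Gamt was at 69.8, 72.3, 73.9 and 78.3 CPM in the low series (WT replicates 1 and 4, SA/SA replicates 1 and 4) and at 121, 114, 121 and 134 CPM in the high series (WT replicates 2 and 3, SA/SA replicates 2 and 3). Every mouse of the high series was above every mouse of the low series, in both genotypes, which 3.53% of all genes showed. The series did not overlap in either direction for 6.85% of all genes, and Gamt was the one member among them. The log2 fold change was 0.73 (SE 0.08, 1.66-fold), and the exact permutation p was 0.0286, the smallest this design can give. High minus low was 0.72 in WT and 0.74 in SA/SA mice on the log2 CPM scale. Leaving out WT replicate 3 brought the adjusted p to 0.0246, and over the 16 alternatives it ran from 7.05e-13 with DESeq2 to 0.236.

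The RefSeq promoter windows of Gamt (GRCm38.p6, chr10:80261013-80261262, minus strand) and of the first of 2 start sites of Pemt (chr11:60040189-60040438, minus strand) are shown because these genes had the smallest p of the set between the series. Neither window holds any of the 5 motifs searched, and no capitals are used.
Gamt promoter: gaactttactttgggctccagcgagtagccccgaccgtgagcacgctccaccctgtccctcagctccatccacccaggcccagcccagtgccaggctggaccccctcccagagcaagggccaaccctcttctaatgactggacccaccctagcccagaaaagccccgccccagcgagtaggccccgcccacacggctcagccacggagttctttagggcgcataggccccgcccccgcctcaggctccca
Pemt promoter: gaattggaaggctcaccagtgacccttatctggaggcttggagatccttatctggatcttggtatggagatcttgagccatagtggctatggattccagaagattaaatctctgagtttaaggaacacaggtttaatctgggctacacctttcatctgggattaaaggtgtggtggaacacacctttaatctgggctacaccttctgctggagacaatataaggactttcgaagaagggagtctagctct

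Promoters were matched for 7 of the 9 members, Ahcy, Bhmt, Cbs, Gnmt, Pemt, Gatm and Gamt. The letters searched on both strands of the 250 bases before each start site were the E-box CACGTG (held by 6.02% of 32851 promoters), the cAMP response element TGACGTCA (1.55%), the TATA box TATAAA (12.4%), AGGTCA (14.0%) and the glucocorticoid receptor core site AGAACA (16.1%). AGGTCA was found before Ahcy, Bhmt, Gnmt and Gatm, and the E-box before Cbs. A match is a description of the sequence and not evidence of binding, and nothing is drawn from a window without one.

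Pemt was at 248, 254, 275 and 272 CPM in the low series and at 384, 273, 394 and 337 CPM in the high series, in the same order of mice. WT replicate 3 lay inside the range of the low series and the other 3 high mice lay above it. High against low, the log2 fold change was 0.40 (SE 0.12, unadjusted p = 0.00800, adjusted p = 0.251).

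Gatm was at 3.30, 4.76, 3.74 and 4.01 CPM in the low series and at 2.79, 3.60, 1.86 and 2.77 CPM in the high series. WT replicate 3 was above the lowest mouse of the low series, and the other 3 high mice were below it. High against low, the log2 fold change was -0.54 (SE 0.23, unadjusted p = 0.0401, adjusted p = 0.360). Of the 9 cell marker lists, the endothelial one did not overlap between the series as a sum: its 5 markers summed to 121 to 161 CPM in the low and 97.7 to 113 CPM in the high series with none at 0. Of the single markers, Stab2 alone was apart (45.3 to 54.2 against 33.4 to 39.6 CPM), Clec4g, Pecam1 and Kdr overlapped, and Lyve1 overlapped with the higher mean in the high series (4.39 against 8.72 CPM). Among the 3 genes most like Gatm over the mice, Erg and Kdr are endothelial. The part of endothelial RNA in the results for Gatm, Pemt and Gamt was not tested.

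Gnmt had a log2 fold change of 0.40 (SE 0.21, adjusted p = 0.452), with 3 of the 4 high mice (WT replicate 2, SA/SA replicates 2 and 3) above all 4 low mice. For Mat1a, Ahcy, Bhmt, Cbs and Nnmt the fitted values lay between -0.03 and 0.13, with standard errors of 0.12 to 0.42. The sign was not stable for these 5 genes when mice were left out in turn (Bhmt -0.37 to 0.40, Nnmt -0.10 to 0.56).

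**Figure D2:**
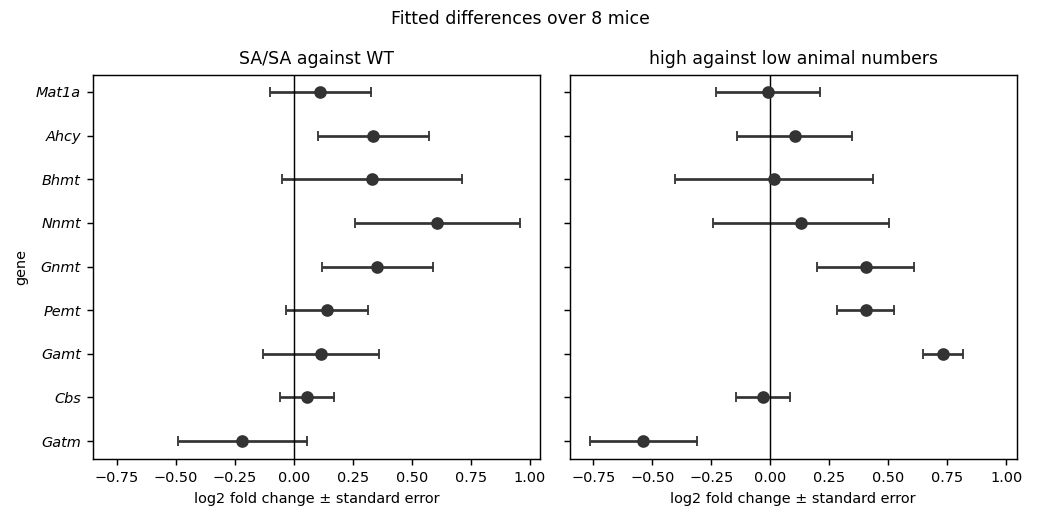
Fitted log2 fold changes with standard errors (edgeR, 8 mice) of the 9 genes for SA/SA against WT, left, and for high against low animal numbers, right. Gamt at 0.73 (SE 0.08) between the series is the most precise difference, and Nnmt at 0.61 (SE 0.35) is the largest between the genotypes.

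The third question was whether the SA/SA to WT difference was the same in both series. For 5 of the 9 members (Mat1a, Ahcy, Bhmt, Gnmt and Nnmt) SA/SA mice had the lower mean in the low series and the higher mean in the high series, a pattern that 27.2% of all genes tested showed. On the log2 CPM scale the difference of the means of 2 mice each was -0.65 in the low and 1.34 in the high series for Bhmt, and -0.13 and 1.43 for Nnmt. It was -0.20 and 0.87 for Ahcy, -0.31 and 0.59 for Mat1a, and -0.09 and 0.72 for Gnmt. Over the 9 members the median was -0.09 in the low and 0.59 in the high series, and over all genes it was near 0 in both. The lower SA/SA mean in the low series rested on WT replicate 1, which was above both SA/SA mice for these 5 genes. WT replicate 4 was below both SA/SA mice for Mat1a and Nnmt, and between them for Ahcy, Bhmt and Gnmt.

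The test of this difference between the series called 0 of 9 members and 0 of all genes (0%) by edgeR, with the smallest adjusted p of any gene at 0.0851. The same 5 members had an unadjusted p under 0.05, against 11.1% of all genes (1622). The fitted difference of the log2 fold changes was 2.03 for Bhmt (SE 0.45, unadjusted p = 0.00169, adjusted p = 0.253), 1.64 for Nnmt (SE 0.50, adjusted p = 0.313) and 1.08 for Ahcy (SE 0.33, adjusted p = 0.313). DESeq2 called these 3 genes, with adjusted p of 2.90e-04, 0.0204 and 0.0455, and 285 of all genes. Over the 15 alternatives the adjusted p ran from 2.22e-17 to 0.605 for Bhmt, from 2.66e-09 to 0.614 for Nnmt and from 1.68e-04 to 0.639 for Ahcy, lowest with no filter on low counts. For Mat1a and Gnmt the fitted difference was 0.94 (SE 0.32, edgeR adjusted p = 0.347) and 0.80 (SE 0.32, edgeR adjusted p = 0.413). Pemt, Gamt and Cbs had values of 0.03, 0.02 and -0.07, each smaller than its standard error. Each genotype had 2 mice per series, and in the low series the WT mice were far apart: Bhmt was at 13028 CPM in replicate 1 and 6700.4 CPM in replicate 4, with the SA/SA mice at 4704 and 7526 CPM. Leaving out single mice gave between 1.48 and 2.43 for Bhmt, and between 0.94 and 2.11 for Nnmt.

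**Figure D3:**
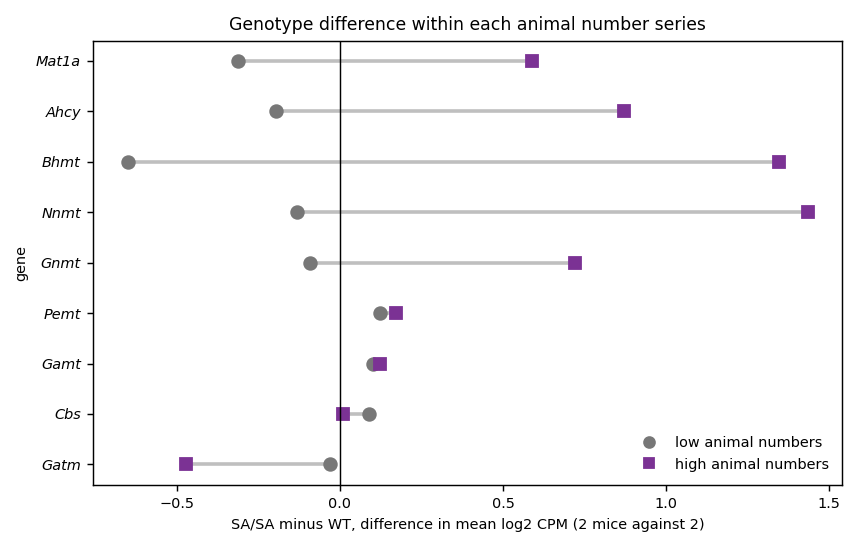
SA/SA minus WT difference of mean log2 CPM (2 mice against 2) of each gene in the low (grey circles) and the high (purple squares) animal number series. Mat1a, Ahcy, Bhmt, Nnmt and Gnmt lie left of 0 in the low and right of 0 in the high series, while Pemt, Gamt and Cbs have nearly the same value in both.

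Seen mouse by mouse, 4 of the 9 members (Mat1a, Ahcy, Bhmt and Nnmt) had the same 3 highest mice, WT replicate 1 and SA/SA replicates 2 and 3. This was noticed after the values were seen and is a description; 767 of 14629 genes (5.24%) had the same 3. These mice come from both genotypes and both series. The 9 genes summed to 31430.3, 30160.2 and 31552 CPM in them and to between 15837 and 20814 CPM in the other 5. This sum, and the members' share of counts given below, include the 4 genes by which the mice were picked, so neither is a separate result. The same 3 libraries had the largest shares of counts in the 50 most abundant genes (35.5%, 35.6% and 36.0% against 33.7% to 34.7%), the lowest scaling factors (0.984, 0.925 and 0.955 against 0.987 to 1.05) and the highest summed hepatocyte markers (105656, 118537 and 122416 CPM against 86219 to 100743). That sum is mostly albumin. Without Alb the other 5 markers summed to 24314, 27725 and 25023 CPM in these mice. In the rest they summed to between 23162 and 26367 CPM, so these mice and the rest overlapped. Single markers went both ways in WT replicate 1: Ttr and Apoa1 were the lowest of all mice there, and Fgb and Apob the highest (5015 and 3929 CPM). The share of the 50 most abundant genes was computed without leaving out the members, so it is not independent of how these mice were picked. The members made up 3.09%, 2.79% and 3.01% of counts in these 3 libraries and 1.66% to 2.12% in the other 5. The part of these library traits in the result was not tested. Gnmt, Pemt and Gamt instead had WT replicate 2 with SA/SA replicates 2 and 3 as their 3 highest mice.

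**Figure D4:**
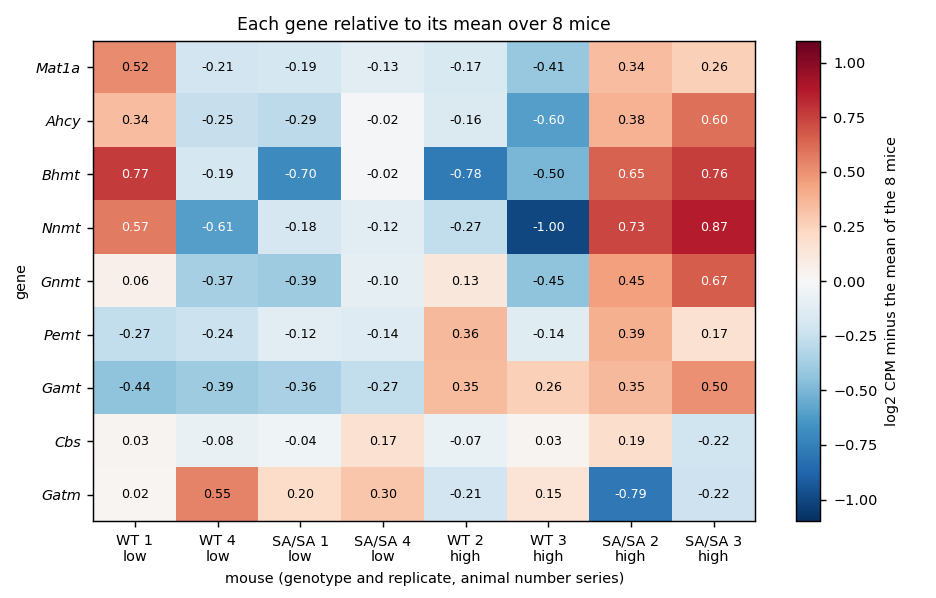
Log2 CPM of each gene minus its mean over the 8 mice, with mice ordered by series and genotype. Mat1a, Ahcy, Bhmt and Nnmt share high values in WT 1, SA/SA 2 and SA/SA 3, Gamt splits at the border between the series (-0.44 to -0.27 against 0.26 to 0.50), and Cbs stays within -0.22 and 0.19.

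Over the 8 mice, Ahcy and Nnmt were the pair of members most alike (Pearson r 0.975), followed by Mat1a with Nnmt (0.925) and Mat1a with Ahcy (0.913), while Pemt and Gamt had r of 0.819. Among all other genes tested, the most similar in log2 CPM was Unkl for Mat1a (r 0.991), Gm6274 for Cbs (0.949), Vdac1 for Gnmt (0.987), Stard10 for Pemt (0.990), Erg for Gatm (0.983), Emc9 for Gamt (0.978) and Zfp870 for Nnmt (0.991). Spearman's rho was at least 0.881 for these genes, and without the 2 mice farthest from the median r was at least 0.940. Each was picked as the highest r among all genes tested, and the points share libraries and their scaling.

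Other genes around the cycle were taken in 10 lists of 112 genes, of which 108 were tested. Between SA/SA and WT mice 0 of 108 were called by edgeR or by DESeq2. An unadjusted p under 0.05 was found for 4 (3.70%), 1 higher and 3 lower, beside 3.4% of all genes. Srm, the spermidine synthase, was at 21.6, 25, 16.5 and 16.9 CPM in WT and at 25.8, 28.5, 31.0 and 25.8 CPM in SA/SA mice. The genotypes did not overlap, which 2.3% of all genes showed, and the log2 fold change was 0.47 (SE 0.15, adjusted p = 0.993). Slc44a1, a choline transporter, was at 33.8, 28.6, 27.4 and 31.4 CPM in WT and at 24.7, 24.9, 21.3 and 24.3 CPM in SA/SA mice. All 4 SA/SA mice were below all WT mice (log2 fold change -0.35, SE 0.10, adjusted p = 0.993). Srm and Slc44a1 were named for a small p, so their lack of overlap is a description. Odc1, the ornithine decarboxylase that starts polyamine synthesis, and Gclc, a subunit of the enzyme that starts glutathione synthesis, had log2 fold changes of 0.38 (SE 0.18) and -0.32 (SE 0.13) with overlapping genotypes.

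Between the series 0 of 108 were called by edgeR and 10 by DESeq2, which called 408 of all 14629 genes. By edgeR 20 (18.5%, 13 higher and 7 lower) had an unadjusted p under 0.05, beside 12.8% of all genes. Gldc, the glycine decarboxylase of the glycine cleavage system, was at 235, 215, 181 and 179.7 CPM in the low and 98.9, 167, 116 and 70.1 CPM in the high series, without overlap (log2 fold change -0.85, SE 0.19, adjusted p = 0.170). Paox, a polyamine oxidase, was at 11.3 to 12.2 CPM in the low and 16.6 to 23.6 CPM in the high series (log2 fold change 0.74, SE 0.12, adjusted p = 0.0746). Inmt, a methyltransferase of indoleamines and other amines, was at 218 to 311 CPM in the low and 396 to 568 CPM in the high series (log2 fold change 0.79, SE 0.15, adjusted p = 0.129). Gldc, Paox and Inmt did not overlap between the series, which 6.85% of all genes showed, and they were picked for a small p. Among the 10 lists, that of nicotinamide and NAD metabolism had the largest share with an unadjusted p under 0.05, and it is described for that reason, after the values were seen. Of its 8 genes, 7 had fitted values above 0 and 4 had an unadjusted p under 0.05 (Nampt, Nmrk1, Aox1 and Naprt), with a median log2 fold change of 0.23 beside 0.00 over all genes. Of all genes, 49.2% had fitted values above 0. So did 10 of 11 genes of transsulfuration, taurine and glutathione (median 0.08) and 8 of 9 other small-molecule methyltransferases (median 0.06). The same held for 10 of 13 genes of choline, betaine and glycine oxidation (median 0.18). Below 0 were 10 of 14 genes of phosphatidylcholine and phosphatidylethanolamine synthesis (median -0.09) and 7 of 9 methionine cycle partners (median -0.11). Most of these medians lay within the quartiles of all genes (-0.19 to 0.17). Nampt, the rate-limiting enzyme of NAD salvage, had a log2 fold change of 0.67 (SE 0.16, adjusted p = 0.185), while Nnmt, which competes for the same nicotinamide, had 0.13 (SE 0.37).

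**Figure D5:**
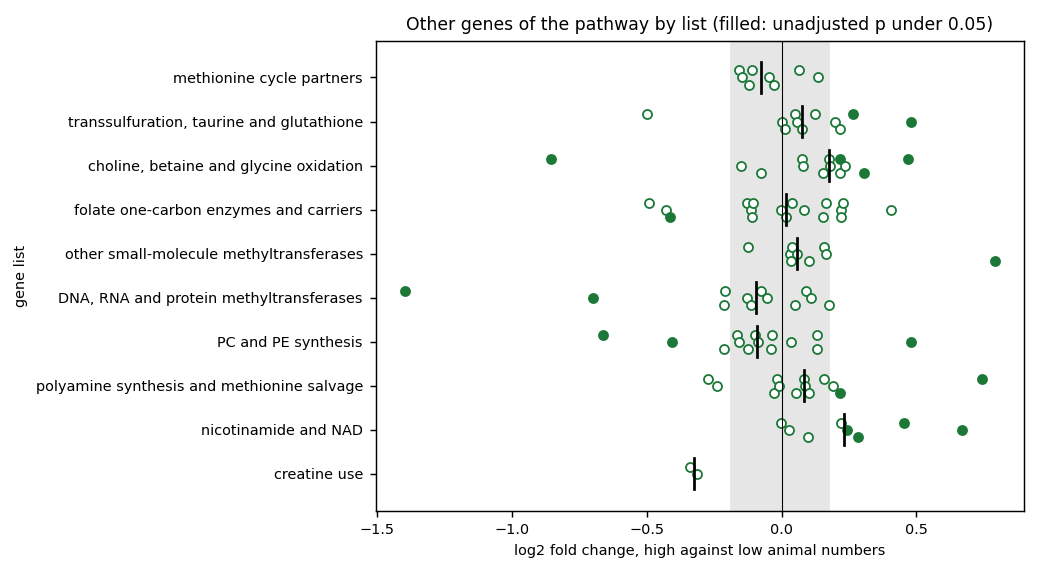
Log2 fold changes between high and low animal numbers of 107 of the 108 tested genes of 10 lists around the methionine cycle; filled points have an unadjusted p under 0.05, black bars are medians of the genes drawn and the grey band runs from the lower to the upper quartile of all genes tested (-0.19 to 0.17). Of the genes drawn, Dnmt3b at -1.40 and Gldc at -0.85 lie farthest left, Inmt at 0.79 and Paox at 0.74 farthest right, and none of the 108 passed the adjusted threshold.

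For the difference between the series of the SA/SA to WT difference, 0 of 108 were called by edgeR and 5 by DESeq2. Of all genes, DESeq2 called 285. An unadjusted p under 0.05 was found for 21 (19.4%), 13 above and 8 below 0, beside 11.1% of all genes. Bhmt2, a second homocysteine methyltransferase that uses S-methylmethionine, was at 274 and 227 CPM in WT and 197 and 221 CPM in SA/SA mice of the low series. In the high series it was at 204 and 218 CPM in WT and 295 and 303 CPM in SA/SA mice. The genotypes were thus apart in both series and in opposite order, a pattern that 9.49% of all genes tested showed. The fitted difference was 0.77 (SE 0.19, adjusted p = 0.282). Mthfd1, a trifunctional folate enzyme, had 0.85 (SE 0.23, adjusted p = 0.285). Mri1 of the methionine salvage pathway had -0.85 (SE 0.20, adjusted p = 0.270), and Csad, which leads from cysteine to taurine, had -1.99 (SE 0.54, adjusted p = 0.282).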

How the data were processed

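RNA of the liver of 4 WT and 4 SA/SA mice was sequenced from poly(A)-selected stranded libraries (100 bp paired-end). The values are estimated counts, which the authors produced with salmon and deposited after scaling for transcript length but not for library size; the salmon version, the annotation release and the use of strand in counting are not given in the sources used here. The submitters' processing notes also name STAR, SAMtools, MultiQC, bcl2fastq, DESeq2 and GRCm38. Scaling for transcript length can move the count of a gene whose isoforms differ between mice.

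The estimated counts were rounded. filterByExpr by genotype kept 14629 of 45706 genes, and edgeR 4.0.16 (R 4.3.3) was run with TMM scaling and its quasi-likelihood test for genotype, for animal number series with genotype as a term, and for their interaction, with Benjamini-Hochberg adjustment over all genes tested and a threshold of 0.05. Standard errors were taken from the F statistic, CPM was computed on TMM-scaled library sizes, with a prior count of 2 for its log2. DESeq2 1.42.0, limma-voom (limma 3.58.1), other scalings and filters, a robust fit, a replicate block, a series term and leaving out each mouse were run as alternatives. Transcripts were compared with BLAST 2.17.0. The tests were checked on simulated counts.

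Animals are separate by the labels. Mice of the same replicate number had correlations of deviations of -0.11 to 0.17. For WT replicates 1, 2 and 4, but not 3, the SA/SA mouse of the same number had the highest correlation. Pairing by number was left out of the main fit and taken up as the replicate block among the alternatives. No libraries were copies. Of the pathway lists, the genes named were the 2 higher and the 2 lower with the smallest unadjusted p in each comparison, since none was called (some genes the rules gave are not reported here), plus genes chosen after their values were seen (Nampt, Nmrk1, Aox1, Naprt and Dnmt3b). The members and lists were chosen with earlier results of these data known.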

Additional observations from a re-analysis of the deposited data

Results flagged for a closer look

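Of 84 groups of 4 mice examined, 4 held a mouse far from the other 3; chance gives about 1 in 20 groups. Mat1a was at 10958 CPM in WT replicate 1, where the other 3 mice of the low series were at 6605 to 7017 CPM. Slc44a1 had 21.3 CPM in replicate 3 of the SA/SA group, against 24.3 to 24.9 CPM in replicates 1, 2 and 4. Mthfd1 was at 248 CPM in WT replicate 1 and at 194 to 198 CPM in the other WT mice. Mri1 was at 32.9 CPM in WT replicate 3 and at 26.3 to 27.4 CPM in the other WT mice.

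For 3 of the pathway genes named for a small p of this difference (Bhmt2, Mri1 and Csad) every SA/SA mouse lay on one side of both WT mice in the low series and on the opposite side in the high series, a pattern that 9.49% of all genes tested and 0 of the 9 members showed. The genes were picked for this contrast, so the count is a description. The difference between the series of the SA/SA to WT log2 fold change was 0.77 for Bhmt2, -0.85 for Mri1 and -1.99 for Csad, and edgeR's interaction test gave adjusted p of 0.282, 0.270 and 0.282, which miss the threshold.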

How the results depend on the processing

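Between the genotypes 0 members and 0 pathway genes were called in all 17 alternatives, and DESeq2 called 6 of all genes. With the replicate number as a block, 0 members, 0 pathway genes and 0 of all genes were called, and Nnmt had a log2 fold change of 0.66. Between the series, Gamt was the 1 member called with DESeq2, with no filter on low counts (adjusted p = 2.10e-04), with no genotype term (0.0278) and without WT replicate 3; all genes called were 408, 514 and 12 in the first 3, and 0 to 111 with mice left out in turn (111 without WT replicate 3), and pathway genes called were 10 with DESeq2, 9 with no filter and 0 to 6 with mice left out (6 without WT replicate 3). Members called were 0 to 1 with mice left out. For the difference between the series of the SA/SA effect, members called were 3 with DESeq2 and 5 with no filter, pathway genes 5 and 10, and all genes 285 and 765, beside 1 with limma-voom and 0 to 40 with mice left out (40 without WT replicate 4). The cause was not tested. A fit that leaves 1 mouse of a genotype in a series assumes that mouse to vary like the others.

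Fitted values near 0 turned sign. Between the series Mat1a was 0.0094 with limma-voom, 0.0081 with no genotype term and -0.13 to 0.24 with mice left out, Bhmt was -0.039 with library size alone and -0.37 to 0.40 with mice left out, and Ahcy (-0.074 to 0.33), Cbs (-0.11 to 0.044) and Nnmt (-0.10 to 0.56) turned with mice left out. Between the genotypes Gamt ran from -0.045 to 0.26. For the difference between the series, Pemt was -0.11 and Gamt -0.13 with library size alone, and with mice left out Pemt ran from -0.19 to 0.30, Gamt from -0.053 to 0.095 and Cbs from -0.29 to 0.12. Members whose series did not overlap were 1 to 4 with mice left out (4 without WT replicate 3, 2 without WT replicate 1 or SA/SA replicate 1), while the share of all genes without overlap also rose, from 6.85% to 16.8%, 11.8% and 9.81% under the same omissions. Gatm, with 90 to 241 counts per library, is the member with the fewest reads.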
